A study of Mus musculus with 12 samples.

Results

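Skin of mice given 100 nmol of an antimiR-29 oligonucleotide without a wound was compared with incised skin given only vehicle, over all genes on the array. The comparison used 6 of the 12 arrays of the series. There were 3 arrays of intact skin injected with antimiR-29 and 3 arrays of incised skin injected with PBS (phosphate-buffered saline). All animals were male C57BL/6 mice of about 8 weeks. The incisions were 1 cm long and sutured, and PBS went into the dermis 72 h after wounding. Intact skin was injected in the same way. Skin was taken from the treated area 24 h after injection, so the incised skin was collected with both the wound and the vehicle injection behind it. The labels call the 3 arrays of each group biological replicates. Intact skin injected with PBS (3 arrays) served as the common baseline, and 3 arrays of incisions given a miR-29b mimic entered the main fit only to estimate the spread. The mimic arrays also counted in the choice of probes and in the fits that allowed for slide or replicate number. The comparison sets inflammation after an oligonucleotide without a wound against that of a wound without an oligonucleotide. The 2 groups differ in both the wound and the oligonucleotide, so neither is the other's control.

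A microRNA is a short RNA that lowers the output of messenger RNAs which pair with its seed, bases 2 to 8 from its 5′ end, and an antimiR is an oligonucleotide that pairs with a microRNA and blocks it. miR-29 is known for repressing many collagen and other matrix genes. Skin cells and the leukocytes in skin sense foreign nucleic acid through Toll-like receptors and cytosolic sensors, which can switch on type I interferon and, through it, the interferon-stimulated genes. A wound releases signals of damage, draws in neutrophils and then monocytes, and starts re-epithelialisation, matrix deposition and, where the muscle sheet under the skin was cut, muscle regeneration. The mature miR-29 sequences of the mouse, from RefSeq on GRCm38.p6, show what the inhibitor is directed at, with the seed in capitals. All 3 carry the same seed, AGCACCA. The sequence and chemistry of the injected oligonucleotide were not given in the sources used here.
miR-29a-3p: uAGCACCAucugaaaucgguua
miR-29b-3p: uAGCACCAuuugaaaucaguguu
miR-29c-3p: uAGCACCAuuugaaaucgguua

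Each array carried Cy5-labelled skin RNA and Cy3-labelled mouse universal reference RNA, and every level below is a log2 ratio of Cy5 over Cy3. A gene was called where limma's moderated test gave a Benjamini-Hochberg adjusted p under 0.05 over all genes tested. Of 20359 genes, 4261 were called (20.9%), 2015 higher in the antimiR-injected intact skin (9.90%) and 2246 lower (11.0%). By 2-fold or more, 174 genes were higher and 409 lower. Below, a rise, fall or difference is that of antimiR skin from the PBS incision, unless another group is named. The median difference over all genes was 0.01. Among genes with a value on all 6 arrays, 43.7% had no overlap between the 2 groups. For 86.1% of genes, called or not, the 95% interval of the difference lay within 1 of 0, that is, within 2-fold. Between 65.6% and 73.8% of probes were well above background on an array. Epidermal keratin Krt14 lay between 3.67 and 4.43 on the 6 arrays. Of 8 measured basal keratinocyte markers, 3 were called lower in antimiR skin, Krt14 among them, and 0 higher, with a list median of -0.19. With other processing the count lower ran from 0 to 3 and the list median from -0.24 to 0.53.

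Some facts touch all results. The PBS incision arrays lay on slide 1 and the antimiR arrays on slide 3, so slide and group cannot be told apart in the direct comparison, and no slide held both groups. With slide as a fixed block, which reaches the contrast only through the other 6 arrays, 140 genes were called, 53 higher and 87 lower. Of those arrays, only mimic array 1 shared slide 1 with the PBS incision and only intact PBS array 3 shared slide 3 with antimiR skin. Every value with that block therefore rests on these single arrays, and a deviation of either one enters it in full. Of the 583 calls of 2-fold or more, 554 kept their direction with that block and 72 kept their call. With slide as a random block 2755 genes were called, all of them in the same direction as without it. Leaving out 1 of the 6 arrays left between 2578 and 3905 calls. The Cy3 reference holds the same RNA on every array, and it moved by 2-fold or more between the 2 groups for 183 genes (0.899%), among them 18 of the 583 calls of 2-fold or more. Intact PBS array 3 was the least like its own group, with a median correlation of 0.921 to the other 2 arrays, against 0.964 to 0.975 in the 2 groups compared. The probe position within a gene moved with the groups as well. In 3781 genes with probes at least 500 bases apart, the upstream probe fell relative to the downstream probe by a median of 0.19 on the log2 scale from PBS incision to antimiR skin, and 69.1% of these genes had a value under 0. The part of probe position in the results was not tested beyond the refit with each gene's most downstream probe, which called 4201 genes.

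**Figure D1:**
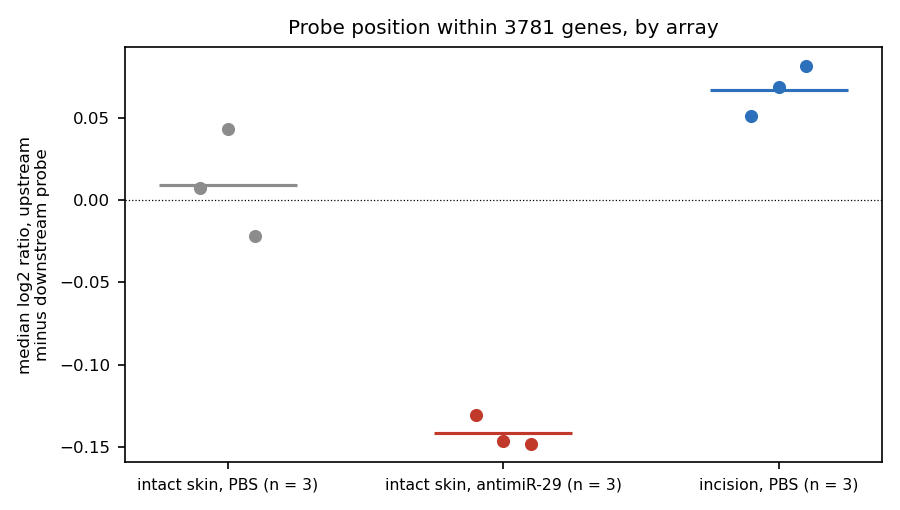
Median log2 Cy5/Cy3 ratio of the upstream minus the downstream probe over 3781 genes (y axis, each gene centred on its mean over the 12 arrays), with 1 point per array and a line at the group mean. The antimiR arrays lie between -0.15 and -0.13, the PBS incision arrays between 0.05 and 0.08, and the intact PBS arrays between -0.02 and 0.04.

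**Figure D2:**
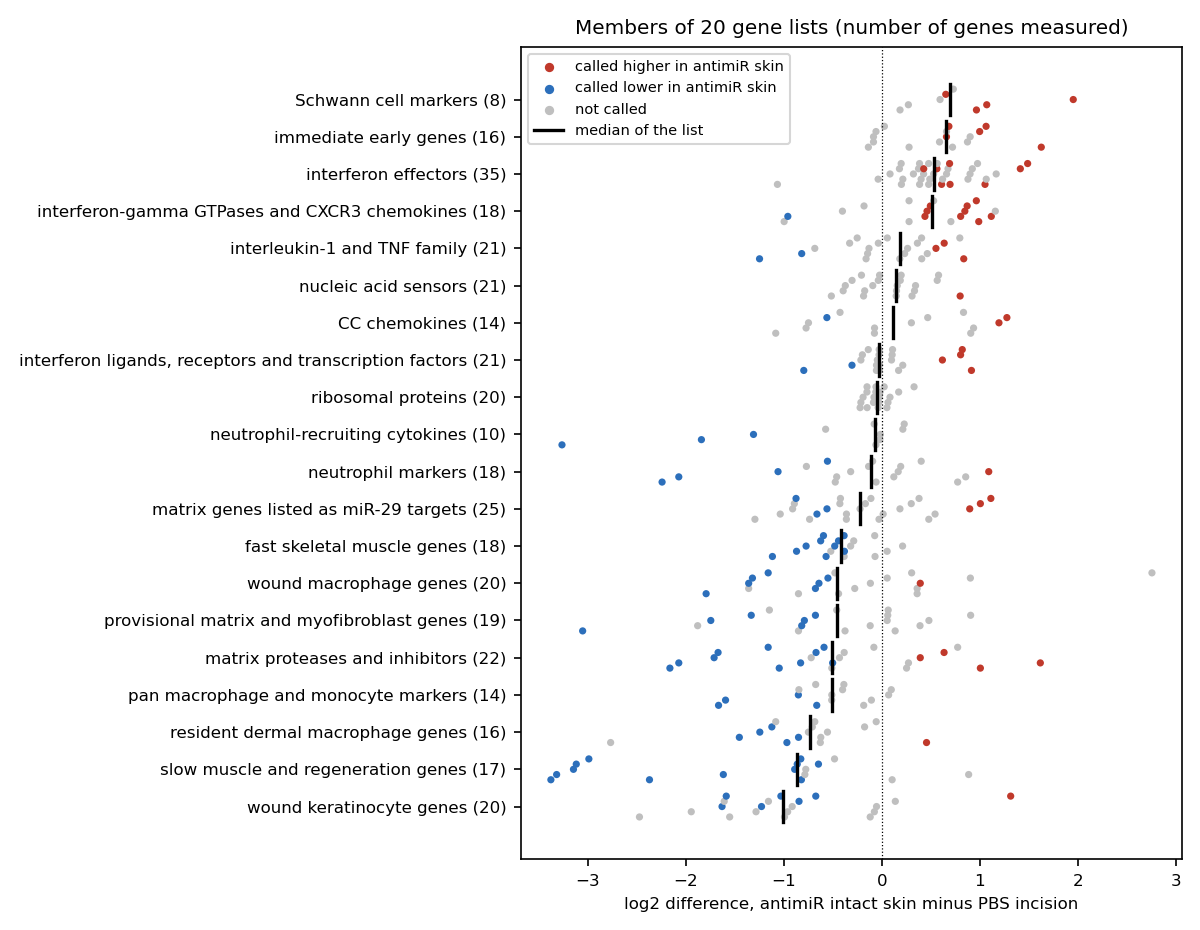
Log2 difference of antimiR intact skin minus PBS incision (x axis) for each measured member of 20 gene lists (y axis, number of genes in brackets), with the list median as a black bar. Members called higher in antimiR skin are red, members called lower are blue and the rest grey. The medians of the interferon effector and interferon-gamma lists lie right of 0 (0.53 and 0.51). That of the interferon ligand, receptor and transcription factor list is -0.03. The medians of the slow muscle list (-0.86) and wound keratinocyte list (-1.01) lie left of 0.

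Interferon-stimulated genes were on above the intact PBS level in both groups, and part of them stood higher after the oligonucleotide than after the wound. Among 35 measured interferon effectors, which include the antiviral IFIT, OAS and MX proteins, 32 were called higher in antimiR skin than in intact PBS skin (median 1.76) and 25 were called higher in the PBS incision than in intact PBS skin (median 1.13). The share of all genes called higher in those comparisons was 5.27% and 9.88%. Both rest on the same intact PBS arrays. Without intact PBS array 3 the counts were 29 and 16. In the direct comparison 8 of the 35 were called higher in antimiR skin and 0 lower, against 9.90% and 11.0% of all genes, and the list median was 0.53. All but 2 members had a positive difference. The count depended on single arrays. It was 11 without PBS incision array 1, 2 without PBS incision array 2, 3 without PBS incision array 3, 13 without antimiR array 1, 2 without antimiR array 2 and 3 without antimiR array 3. With the fixed slide block the list median was 1.14 and no member was called, and 4 were called higher and 1 lower in the authors' deposited table.

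The height of the interferon response differed from array to array within both groups. Isg15, a ubiquitin-like protein that is conjugated to other proteins, was 1.31, 2.89 and 2.21 on the antimiR arrays, 1.80, 0.77 and 1.07 on the PBS incision arrays and -0.36, -0.66 and -1.95 on the intact PBS arrays. All arrays of both groups lay above all intact PBS arrays, but antimiR array 1 lay below PBS incision array 1. The difference was 0.92 (95% interval -0.10 to 1.95, limma adjusted p = 0.18). Ifit1, which binds foreign 5′ RNA ends, read 0.95, 2.96 and 2.33 after antimiR and 1.76, 0.48 and 0.81 after incision. These overlap, and its difference of 1.06 (SE 0.47) was not called (limma adjusted p = 0.13). Without antimiR array 1 it was 1.63 and called. Mx1, a GTPase that blocks influenza virus, had no value on antimiR array 3 and differed by 1.17 (95% interval -0.27 to 2.60).

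The near-identical copies Ifit3 and Ifit3b gave different answers. Ifit3 was 2.01, 2.78 and 2.31 on the antimiR arrays and 2.66, 1.82 and 2.09 on the PBS incision arrays, a difference of 0.18 (95% interval -0.32 to 0.68). Ifit3b was 2.44, 3.55 and 2.89 against 2.07, 1.06 and 1.29, which do not overlap, and its difference was 1.49 (SE 0.29, limma adjusted p = 0.0053). Because the genes are so alike, which copy each probe reports is uncertain. The Cy3 reference moved by 0.87 between the groups for Ifit3 and by 0.46 for Ifit3b. The mean Cy5 signal of Ifit3 was 5182, 16104.5 and 10738 on the antimiR arrays and 7495, 3354 and 4276 on the PBS incision arrays. The part of the reference in the Ifit3 result was not tested. In the authors' deposited table the Ifit3b difference was 0.76. Ifit1bl1, another gene of the IFIT family, rose by 1.72 (SE 0.42), with 1.72, 3.76 and 2.89 against 1.48, 0.86 and 0.87. Its call ended without PBS incision array 2 (1.61), PBS incision array 3 (1.62) or antimiR array 3 (1.66). Herc6, an ISG15 ligase of the mouse, was 1.05 higher (SE 0.20), and its arrays did not overlap (0.34, 1.27 and 0.80 against -0.10, -0.38 and -0.26), but its most downstream probe gave 0.26 and no call. Rsad2, the antiviral enzyme viperin, was 1.41 higher and lost its call without PBS incision array 2 or 3 or antimiR array 2 or 3, at 0.98 to 1.35.

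Stretches of promoter around matches to the interferon-stimulated response element, spelled GAAA, any 2 bases, GAAA on either strand, are shown for genes on both sides of the comparison, to let the called and uncalled genes be set side by side. The windows come from RefSeq on GRCm38.p6, read 5′ to 3′ along the gene with the match in capitals. Isg15 lies at chr4:156200855-156200904 (minus strand, match 56 bases before the start), Ifit3 at chr19:34583387-34583436 (plus), Ifit3b at chr19:34607783-34607832 (plus), Stat2 at chr10:128270256-128270305 (plus), Gbp2 at chr3:142620584-142620633 (plus) and Gbp5 at chr3:142496749-142496798 (plus).
Isg15: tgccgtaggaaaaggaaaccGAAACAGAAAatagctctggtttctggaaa
Ifit3: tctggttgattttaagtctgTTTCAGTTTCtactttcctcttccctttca
Ifit3b: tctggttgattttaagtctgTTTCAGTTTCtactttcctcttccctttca
Stat2: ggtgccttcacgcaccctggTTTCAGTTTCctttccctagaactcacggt
Gbp2: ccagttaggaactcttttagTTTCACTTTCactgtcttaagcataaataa
Gbp5: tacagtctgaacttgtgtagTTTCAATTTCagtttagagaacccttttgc
The windows of Ifit3 and Ifit3b are the same letter for letter. A match was present in 12 of 26 interferon effectors with a promoter in the table (46.2%), in 9 of 12 genes of the interferon-gamma list described next (75%) and in 3.79% of all 13631 tested genes with a promoter. Among genes called higher in antimiR skin by 2-fold or more it was present in 11.2% of 125, and among those called lower by 2-fold or more in 4.23% of 260.

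The GTPases and chemokines best known from interferon-gamma were the interferon list with the larger share of calls. Of 18 measured members, 9 were called higher and 1 lower, against 9.90% and 11.0% of all genes, with a median of 0.51. Against intact PBS skin the medians were 1.13 in antimiR skin (10 called higher) and 0.49 in the PBS incision (7 called higher, 4 without intact PBS array 3). Of all genes, 5.27% and 9.88% were called higher in those comparisons. Gbp4, a guanylate-binding protein that attacks vacuoles holding microbes, was 2.26, 2.84 and 2.65 on the antimiR arrays and 1.88, 1.53 and 1.44 on the PBS incision arrays. Every antimiR array lay above every PBS incision array, and the difference was 0.96 (SE 0.18, limma adjusted p = 0.0039). Gbp2 rose by 0.80 and lost its call without PBS incision array 3 (0.70). Igtp, an immunity-related GTPase, was 1.12 higher, and its call ended without PBS incision array 2 or 3 or antimiR array 2 or 3, at 0.83 to 1.09. With only the 2 groups in the fit 5 were called higher, and with the fixed slide block 0 were. Over the list the count higher fell to 2, 1, 2 and 4 without PBS incision array 2, PBS incision array 3, antimiR array 2 and antimiR array 3.

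Gbp5 went the other way. This guanylate-binding protein, known for its part in inflammasome assembly, was 0.61, 0.65 and 0.21 on the antimiR arrays, 1.72, 1.29 and 1.33 on the PBS incision arrays and 0.75, 0.49 and 0.57 on the intact PBS arrays. The antimiR arrays overlapped the intact PBS arrays and lay wholly below the incised ones, a difference of -0.96 (SE 0.15, limma adjusted p = 0.002). Its other probe gave -0.44 without a call, as did the most downstream probe. The Cy3 reference signal of Gbp5 was 780, 718 and 731 on the PBS incision arrays but 615, 576 and 54.7 on the antimiR arrays. On antimiR array 3 the Cy5 signal was low too, at 91.6 against 886 and 901 on antimiR arrays 1 and 2. The Cy5 channel alone, with that array included, gave -1.84 and the authors' deposited table -0.54, both without a call. Cxcl10, a chemokine that draws T cells, was 0.65, 4.04 and 3.16 against 2.32, 0.60 and 1.46. Its difference of 1.16 was not called (95% interval -0.59 to 2.91), but without antimiR array 1 it was 2.14 and called.

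Genes upstream of these effectors were called at a share near that of all genes on the lower side. Of 21 measured interferon ligands, receptors and transcription factors, 4 were called higher (Stat2, Ifnlr1, Irf1 and Socs1) and 2 lower (Ifnar2 and Ifnar1), against 9.90% and 11.0% of all genes, and the list median was -0.03. The count higher was 1 without antimiR array 2 or 3, 2 without PBS incision array 2 or 3 and 2 in the authors' deposited table. Ifnb1, Ifna4 and Ifne did not pass the filter on dim probes. Stat2, which forms the type I interferon transcription complex with IRF9, was 1.97, 2.51 and 2.05 after antimiR and 1.58, 0.94 and 1.26 after incision. The groups did not overlap and differed by 0.91 (SE 0.21, limma adjusted p = 0.011). In the authors' deposited table the Stat2 difference was 0.74, not called. Ifnar2, a chain of the type I interferon receptor, was -0.78, -0.92 and -0.90 against -0.01, 0.10 and -0.29, lower by a difference of -0.80 (SE 0.16, limma adjusted p = 0.0054). The antimiR arrays lay within the intact PBS range for Ifnar2 (-1.13, -0.77 and -0.44).

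The remaining called members of that list were less firm. Irf1, a transcription factor of interferon-gamma signalling, differed by 0.62 at its brightest probe and by -0.03 at its most downstream probe, and it lost its call without PBS incision array 2 or 3 or antimiR array 2 or 3 (0.49 to 0.59). Ifnlr1, a receptor chain of interferon-lambda, differed by 0.82, and by 0.73 and 0.77 without a call when antimiR array 2 or 3 was left out. Socs1, a feedback inhibitor of cytokine receptors, differed by 0.80 and was called only with all arrays or without antimiR array 1. It was at 0.64 to 0.88 in the other 5 leave-outs. Ifnar1 differed by -0.31 and lost its call with any of the 6 arrays left out. Irf7, the master regulator of interferon-alpha genes, was 0.83, 1.24 and 0.80 against 1.59, 0.62 and 0.81. Its difference of -0.05 (95% interval -0.75 to 0.66) changed sign with several settings and was called with none.

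Of 21 measured sensors of nucleic acid, 1 was called higher and 0 lower, against 9.90% and 11.0% of all genes. The list median was 0.15. Against intact PBS skin, 11 of the 21 were called higher in antimiR skin (median 0.55) and 12 in the PBS incision (median 0.68), with the same baseline arrays in both counts. Of all genes, 5.27% and 9.88% were called higher there. The 1 gene called between antimiR skin and the incision was Dhx58, encoding LGP2, a helper of the RNA helicases RIG-I and MDA5. Dhx58 was at 2.12, 2.63 and 2.42 against 1.94, 1.32 and 1.51. It differed by 0.80 (SE 0.19, limma adjusted p = 0.016) and lost its call without PBS incision array 2 or 3 or antimiR array 2 or 3 (0.66 to 0.78), nor was it called in the authors' deposited table (0.74). Ifih1, encoding MDA5 itself, was 2.16, 2.83 and 2.48 against 2.69, 1.95 and 2.36, which overlap, a difference of 0.16 (95% interval -0.28 to 0.60). Tlr7, a receptor for single-stranded RNA, stood at 1.73, 1.68 and 1.36 against 2.15, 1.87 and 1.94, and Tlr3, for double-stranded RNA, differed by 0.34 (95% interval -0.03 to 0.71), or by 0.87 and called with the processed signals. The difference for Tlr7 was -0.40 (95% interval -0.74 to -0.05) and was not called (limma adjusted p = 0.094).

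**Figure D3:**
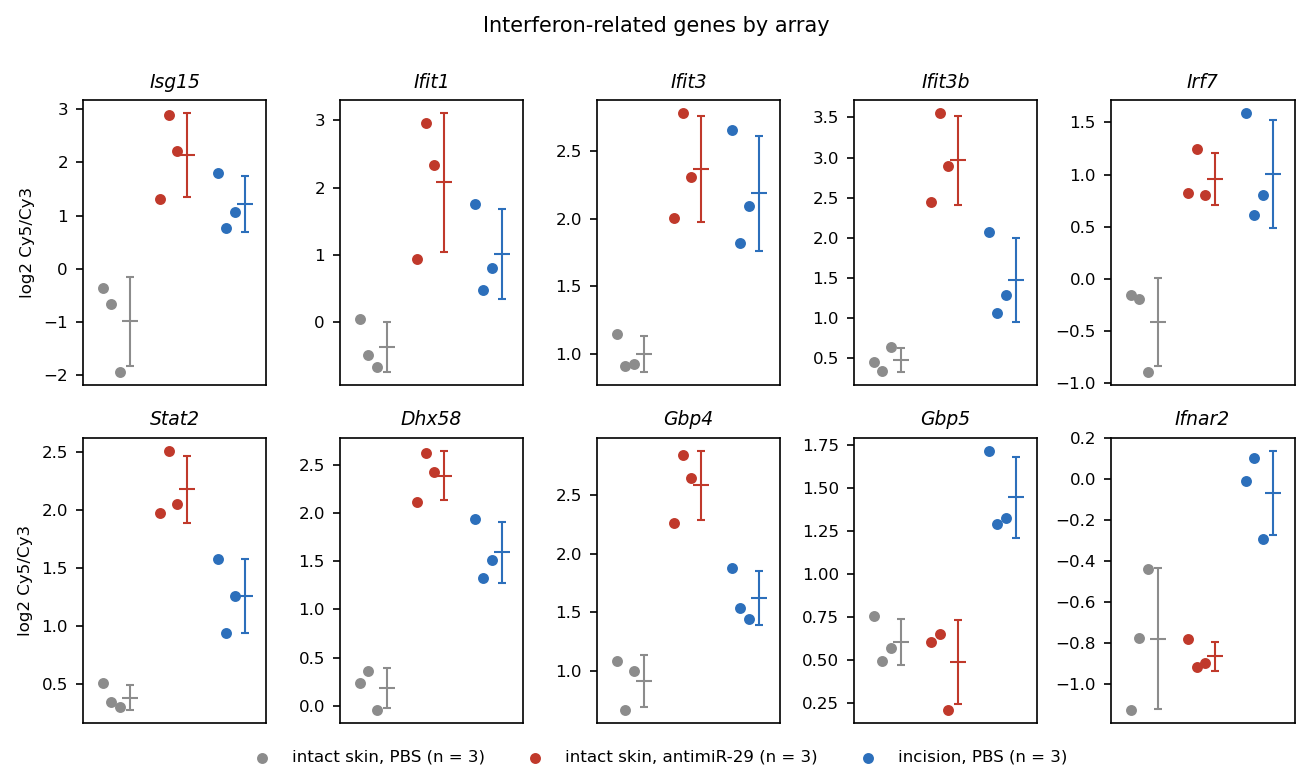
Log2 Cy5/Cy3 (y axis, own scale in each panel) of 10 interferon-related genes on each array of intact PBS skin (grey), antimiR intact skin (red) and PBS incision (blue), with the mean and SD beside the points (n = 3 each). Isg15, Ifit1, Ifit3 and Irf7 overlap between red and blue, Ifit3b, Stat2, Dhx58 and Gbp4 are higher in red, and Gbp5 and Ifnar2 are higher in blue.

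The classical inflammatory genes Il1b, Il6 and Saa3 were not called, and the intervals of Il1b and Saa3 were wide. Il1b, the main secreted interleukin-1, was 4.18, 3.48 and 1.61 on the antimiR arrays, 3.71, 2.71 and 3.33 on the PBS incision arrays and 1.12, 1.00 and 0.18 on the intact PBS arrays. Each antimiR and incised array lay above each intact PBS array, and the difference between the first 2 groups was -0.16 (95% interval -1.36 to 1.04). AntimiR array 3 was the low one, and without it the difference was 0.58. Il6, a driver of the acute phase response, was -0.65, -0.77 and -1.68 against -0.36, -1.40 and -1.10, a difference of -0.08 (95% interval -0.70 to 0.55). Saa3, a local acute phase protein, differed by 0.26 (95% interval -1.29 to 1.81). The intervals of Il1b and Saa3 include differences of more than 2-fold either way.

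Among 21 measured interleukin-1, TNF family and NF-κB feedback genes, 3 were called higher and 2 lower, against 9.90% and 11.0% of all genes. Those higher were Nfkbia, Nfkbiz and Tnfsf13b, those lower were Il33 and Nos2, and the list median was 0.18. The count higher was 1 without any 1 of the PBS incision arrays or antimiR array 2, and the count lower was 1 without any 1 of the antimiR arrays. Without PBS incision array 2 the median was -0.07. Nfkbia encodes the inhibitor that holds NF-κB in the cytoplasm and is itself an NF-κB target. It was 0.47, 0.54 and 0.60 on the antimiR arrays and -0.20, -0.37 and -0.33 on the PBS incision arrays. The groups lay clear of each other, with a difference of 0.84 (SE 0.11, limma adjusted p = 0.00074), and it was still called with the fixed slide block (1.29). On the intact PBS arrays Nfkbia was 0.44, 0.42 and 0.05, and it was called lower in the incision than there (-0.60), but not called between antimiR and intact PBS skin (0.23). Nfkbiz, a nuclear relative, differed by 0.64, lost its call with any of the 6 arrays left out (0.54 to 0.70) and was called with the fixed slide block (1.67). Tnfsf13b, the B cell survival factor BAFF, differed by 0.55, lost its call in every leave-out but that of antimiR array 3 (0.50 to 0.57) and turned to -0.15 with the fixed slide block.

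Il33, an alarmin stored in the nuclei of barrier cells, was higher in the wound. It was 1.10, 1.53 and 1.36 on the antimiR arrays, 2.08, 3.01 and 2.64 on the PBS incision arrays and 1.02, 1.14 and 0.83 on the intact PBS arrays. The antimiR arrays overlapped the baseline and lay wholly below the incised ones, a difference of -1.25 (SE 0.24, limma adjusted p = 0.0046). Nos2, inducible nitric oxide synthase, differed by -0.82. PBS incision array 1 was high (0.30, against -0.56 and -0.62), and without it the difference was -0.52 and still called. Without antimiR array 1, 2 or 3 it was -0.79, -0.85 and -0.82 and not called.

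Of 10 measured neutrophil-recruiting cytokines, 3 were called lower in antimiR skin (Cxcl5, Cxcl1 and Pf4) and 0 higher. The shares of all genes were 11.0% and 9.90%, and the list median was -0.07. The median was -0.92 with the processed signals and in the authors' deposited table, each with 2 called lower. Without antimiR array 3, 0 were called lower and 1 higher, and the median was 0.01. Cxcl5, made by epithelial cells, was -4.39, -1.45 and -4.48 on the antimiR arrays and 0.91, -0.89 and -0.55 on the PBS incision arrays. AntimiR array 2 lay near the lowest incised array and the other antimiR arrays lay in the intact PBS range (-3.74, -3.85 and -5.50). The difference was -3.27 (SE 0.79, limma adjusted p = 0.015) and was not called without PBS incision array 1 (-2.72) or antimiR array 3 (-2.75), nor in the authors' deposited table (-3.86). Cxcl1 was -4.18, -4.01 and -4.36 against -1.96, -3.05 and -3.61, lower by a difference of -1.31 (SE 0.35, limma adjusted p = 0.023). Without PBS incision array 1, the highest, Cxcl1 was at -0.85, without antimiR array 3 at -1.22 and not called, and in the Cy5 channel alone at -0.94 and not called. Pf4, a platelet and macrophage chemokine, differed by -1.84 and lost its call without PBS incision array 2 (-1.70) or antimiR array 3 (-1.42). Cxcl2, of the same family, was 1.86, 1.13 and -0.31 against 0.79, 0.65 and 0.55 and differed by 0.23 (95% interval -0.69 to 1.14). Without antimiR array 3 it was 0.83 and called.

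Promoter stretches with a match to the NF-κB motif (GGGA, any 4 bases, CC, on either strand) are shown for Nfkbia, called higher in antimiR skin, and Cxcl1, called lower, and for Il6, which was not called. Nfkbia lies at chr12:55492648-55492696 (minus strand), Cxcl1 at chr5:90891155-90891204 (plus) and Il6 at chr5:30013051-30013100 (plus), on GRCm38.p6 from RefSeq.
Nfkbia: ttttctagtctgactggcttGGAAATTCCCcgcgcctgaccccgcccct
Cxcl1: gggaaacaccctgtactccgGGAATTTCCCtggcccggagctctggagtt
Il6: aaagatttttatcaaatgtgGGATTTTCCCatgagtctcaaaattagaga
A match on either strand, anywhere in the promoter sequence, was present in 28.7% of all tested genes with a promoter, so the motif is common. The stretches printed here are short parts of those promoters.

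The CC chemokines that draw monocytes did not separate as a list. Of 14 measured, 2 were called higher (Ccl17 and Ccl3) and 1 lower (Ccl6), against 9.90% and 11.0% of all genes. The list median was 0.11, and it was -0.16 without antimiR array 2, -0.01 without PBS incision array 3 and 0.42 without antimiR array 1. Ccl2, the ligand of CCR2, was -1.45, 0.38 and -0.42 against -0.21, -0.50 and -0.55, and differed by -0.08 (95% interval -1.03 to 0.87). The antimiR arrays spread across and beyond the incised ones. Ccl4 was 0.34, 1.20 and -0.32 against -0.20, -0.89 and -0.49 and differed by 0.94 (95% interval -0.02 to 1.89). Ccl17, a chemokine of dendritic cells, differed by 1.28 and lost its call without PBS incision array 2 (1.14). Ccl6 differed by -0.56 and lost its call without PBS incision array 1 or 3 or antimiR array 2 (-0.56, -0.54 and -0.38). The call for Ccl3 (1.19) rests on a spot whose Cy3 reference signal was 5608, 5486 and 5309 on the PBS incision arrays but 4597, 839 and 42.0 on the antimiR arrays. AntimiR array 2 had no value there, the difference was 0.67 without antimiR array 3, and the Cy5 channel alone gave -1.62 without a call.

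Neutrophil markers were called in both directions. Of 18 measured neutrophil markers, 4 were called lower (Mmp9, Trem1, S100a9 and S100a8) and 1 higher (Camp), against 11.0% and 9.90% of all genes. The list median was -0.12. In the Cy5 channel alone 2 were called lower and 2 higher. With the fixed slide block the median was 0.38, with 1 called higher and 0 lower, and without antimiR array 3 the median was 0.03. S100a9, a calcium-binding alarmin of neutrophils that keratinocytes of wounds also make, was 6.70, 6.10 and 5.56 on the antimiR arrays, 6.88, 7.43 and 7.22 on the PBS incision arrays and 5.31, 5.09 and 5.34 on the intact PBS arrays. The antimiR group lay between the other groups and overlapped neither, with a difference of -1.06 from the incision (SE 0.24, limma adjusted p = 0.012), but S100a9 was not called in the Cy5 channel alone (-1.19). Its partner S100a8 was 4.56, 2.16 and 4.32 against 5.68, 6.40 and 5.70, a difference of -2.24 that lost its call in every leave-out but that of antimiR array 1 (-2.57 to -1.48) and in the Cy5 channel alone (-1.93). Trem1, a receptor that amplifies inflammation in neutrophils and monocytes, was 0.63, 0.54 and 0.56 against 1.31, 0.96 and 1.13, lower by a difference of -0.56 (SE 0.11, limma adjusted p = 0.0069). The antimiR arrays lay at the intact PBS level (0.63, 0.39 and 0.73).

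Camp, the cathelicidin antimicrobial peptide, was higher in antimiR skin. It was 1.01, 0.91 and 1.31 on the antimiR arrays, 0.12, -0.01 and -0.15 on the PBS incision arrays and 0.87, 0.95 and -0.03 on the intact PBS arrays. The antimiR arrays lay above all incised arrays, a difference of 1.09 (SE 0.23, limma adjusted p = 0.0075), and with the fixed slide block the difference was 2.32 and called. Against intact PBS skin Camp was called in neither group (0.48 and -0.61).

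**Figure D4:**
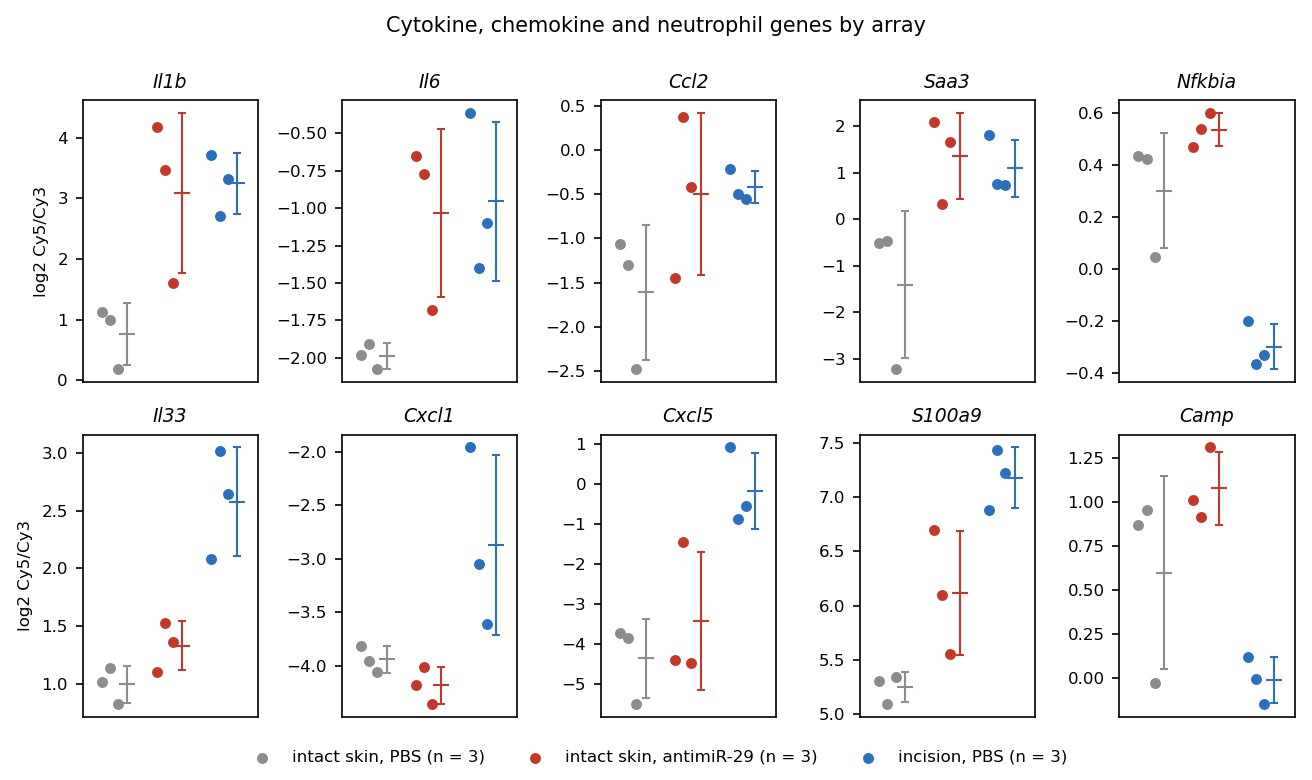
Log2 Cy5/Cy3 (y axis, own scale in each panel) of 10 cytokine, chemokine and neutrophil genes on each array of intact PBS skin (grey), antimiR intact skin (red) and PBS incision (blue), with the mean and SD beside the points (n = 3 each). Il1b, Il6, Ccl2 and Saa3 overlap between red and blue, Nfkbia and Camp are higher in red, and Il33, Cxcl1, Cxcl5 and S100a9 are higher in blue.

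Macrophage genes that were called were mostly lower in antimiR skin than in the wound, among recruited and resident cell lists alike. In whole skin, fewer cells of a type and less RNA per cell cannot be told apart. Of 14 measured pan macrophage and monocyte markers, 4 were called lower (Cx3cr1, Laptm5, Csf1r and Itgam) and 0 higher, with a median of -0.51. The shares of all genes called lower and higher were 11.0% and 9.90%. Against intact PBS skin the list median was 0.59 in antimiR skin (0.34 without intact PBS array 3) and 1.25 in the PBS incision, on the same baseline arrays. Cx3cr1, the fractalkine receptor, was 2.11, 2.41 and 2.39 on the antimiR arrays and 3.79, 3.78 and 4.13 on the PBS incision arrays, while intact PBS arrays were at 1.97, 2.16 and 1.39. The antimiR arrays overlapped the baseline and lay far below the incision, with a difference of -1.60 (SE 0.21, limma adjusted p = 0.00059). Laptm5, a lysosomal protein of blood cells, fell by 1.67 on the log2 scale (SE 0.28) and Csf1r, the receptor that keeps macrophages alive, fell by 0.85 (SE 0.18). Itgam, the integrin chain CD11b, differed by -0.67 (SE 0.13) and was not called in the Cy5 channel alone (-0.64) or in the authors' deposited table (-0.46).

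Of 20 measured wound macrophage genes, 7 were called lower and 1 higher (Ctsk), against 11.0% and 9.90% of all genes. The list median was -0.46, or -0.20 in the Cy5 channel alone. Trem2, a lipid receptor of macrophages that clear debris, was -0.07, -0.44 and 0.01 on the antimiR arrays, 1.06, 1.28 and 1.13 on the PBS incision arrays and -1.91, -1.42 and -1.57 on the intact PBS arrays. The 3 groups were fully apart, with antimiR in the middle, and the difference to the incision was -1.32 (SE 0.17, limma adjusted p = 0.00052). Arg1, the arginase of repair macrophages, was 4.07, 3.23 and 2.78 against 5.06, 5.17 and 5.24, lower by a difference of -1.79 (SE 0.29, limma adjusted p = 0.002). AntimiR skin overlapped intact PBS skin for Arg1 (3.48, 2.88 and 3.28). The processed signals of the extraction program gave -1.01 for Arg1. C3ar1, the receptor of complement fragment C3a, fell by 1.08 (SE 0.14). Ctsk, the collagen-degrading cathepsin K, differed by 0.39, lost its call without PBS incision array 2 (0.28) or antimiR array 1 (0.35), and its Cy3 reference moved by 2.06 between the groups, so that the Cy5 channel alone gave 2.41.

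Of 16 measured resident dermal macrophage genes, 5 were called lower (Retnla, F13a1, Stab1, Folr2 and Mrc1) and 1 higher (Gas6). The shares of all genes were 11.0% and 9.90%. The median of the list was -0.73, and 15 of the 16 had a negative difference. The list median against intact PBS skin was -0.65 in antimiR skin, where 5 were called lower against 4.48% of all genes, and 0.16 in the incision. F13a1, a transglutaminase stored by these cells, was 5.22, 3.96 and 3.74 on the antimiR arrays, 5.87, 5.63 and 5.79 on the PBS incision arrays and 5.57, 5.69 and 5.24 on the intact PBS arrays. AntimiR array 1 lay near the baseline and the other 2 well below it, with a difference to the incision of -1.46 (SE 0.33, limma adjusted p = 0.011). Retnla, a secreted resistin-like protein, fell by 0.85 (SE 0.18) and was not called in the Cy5 channel alone (-1.07). Mrc1 (-1.25), Stab1 (-1.12) and Folr2 (-0.97), which encode scavenger and folate receptors, lost their calls without antimiR array 2 or 3, at -1.13 to -0.71. Folr2 lost it also without PBS incision array 3 (-0.94) and Mrc1 without PBS incision array 1 (-1.25) or 2 (-1.19). Without antimiR array 1, 10 members were called lower, without antimiR array 2 or 3 there were 2, and in the Cy5 channel alone 3. Gas6, a bridge to dying cells, differed by 0.46 and lost its call without PBS incision array 2 (0.34), PBS incision array 3 (0.51), antimiR array 1 (0.41) or antimiR array 3 (0.42). Lyve1, the hyaluronan receptor of these macrophages and of lymphatic vessels, was not called (-0.56, 95% interval -1.52 to 0.41). With the fixed slide block the medians of the pan, wound and resident lists were 0.27, 0.06 and -0.66. No member was called with it.

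Muscle genes made up most of the deepest falls. Of 17 measured slow muscle and regeneration genes, 12 were called lower in antimiR skin and 0 higher, against 11.0% and 9.90% of all genes. The list median was -0.86, and between 10 and 12 members were called lower with any 1 array left out. Tnni1, the slow troponin I of developing muscle, was 0.95, 0.04 and 0.23 on the antimiR arrays, 3.77, 3.95 and 3.46 on the PBS incision arrays and 0.60, 0.79 and 0.85 on the intact PBS arrays. AntimiR and intact PBS skin overlapped, and the incision stood 9.99-fold above antimiR skin, a difference of -3.32 (SE 0.23, limma adjusted p = 1.2e-05). Tnni1 (-3.34) and Tnnt2 (-4.37) were the members still called with the fixed slide block. Myh3, the embryonic myosin heavy chain that marks new fibres, was 3.17, 1.35 and 2.12 against 5.42, 5.41 and 5.26, a difference of -3.15 (SE 0.37, limma adjusted p = 0.00034). Its Cy3 reference also moved, by -2.04, and the Cy5 channel alone gave -5.10. Tnnt1, Tnnc1 and Tnnt2, further troponins of slow or embryonic muscle, differed by -3.38 (SE 0.62), -3.12 (SE 0.32) and -2.99 (SE 0.41).

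Genes of the muscle precursor and of the nerve contact were lower as well. Mymx, the micropeptide that lets myoblasts fuse, was -0.24, -0.86 and 1.97 on the antimiR arrays, 3.81, 3.82 and 3.26 on the PBS incision arrays and 0.01, 0.54 and 2.83 on the intact PBS arrays. AntimiR array 3 and intact PBS array 3 were the high arrays of their groups, both on slide 3, and still lay below every incised array. The difference was -3.34 (SE 0.76, limma adjusted p = 0.012). Myl4, an embryonic light chain, was 1.17, 1.23 and 2.68 against 5.13, 5.03 and 4.54 and fell by 3.20 (SE 0.50). Chrna1, the acetylcholine receptor alpha chain, differed by -2.37, and its call ended without PBS incision array 1 (-2.26), PBS incision array 2 (-2.21) or antimiR array 2 (-1.77). Pax7, which marks satellite cells, differed by -0.65, by -0.55 without PBS incision array 2 and no call, and by -3.21 with the processed signals. Mest, an imprinted gene of growing mesoderm, was 0.11, 1.82 and 0.14 against 3.27, 4.33 and 3.34 and fell by 2.96 (SE 0.42), and its other probes gave -2.35 and -0.82.

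Genes of mature fast fibres, as in the panniculus carnosus under mouse skin, had a smaller list median. Of 18 measured, 10 were called lower and 0 higher, against 11.0% and 9.90% of all genes, with a median of -0.41. Myh4, the fastest myosin heavy chain, was 5.64, 5.47 and 5.08 on the antimiR arrays, 6.29, 6.24 and 6.27 on the PBS incision arrays and 5.95, 5.77 and 5.69 on the intact PBS arrays. The antimiR group lay below both others, with a difference to the incision of -0.87 (SE 0.13, limma adjusted p = 0.0012). Actn3, the fast-fibre alpha-actinin, fell by 1.12 (SE 0.20) and was not called in the Cy5 channel alone (-0.97). In that channel the list had 1 call lower, 1 higher and a median of 0.05. The count fell to 3, 4 or 5 when any array but antimiR array 1 was left out (3 without PBS incision array 3, 5 without antimiR array 2 and 4 without each of the other 3), and the list median was -0.01 with the fixed slide block. How much muscle each piece of skin held was not measured.

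**Figure D5:**
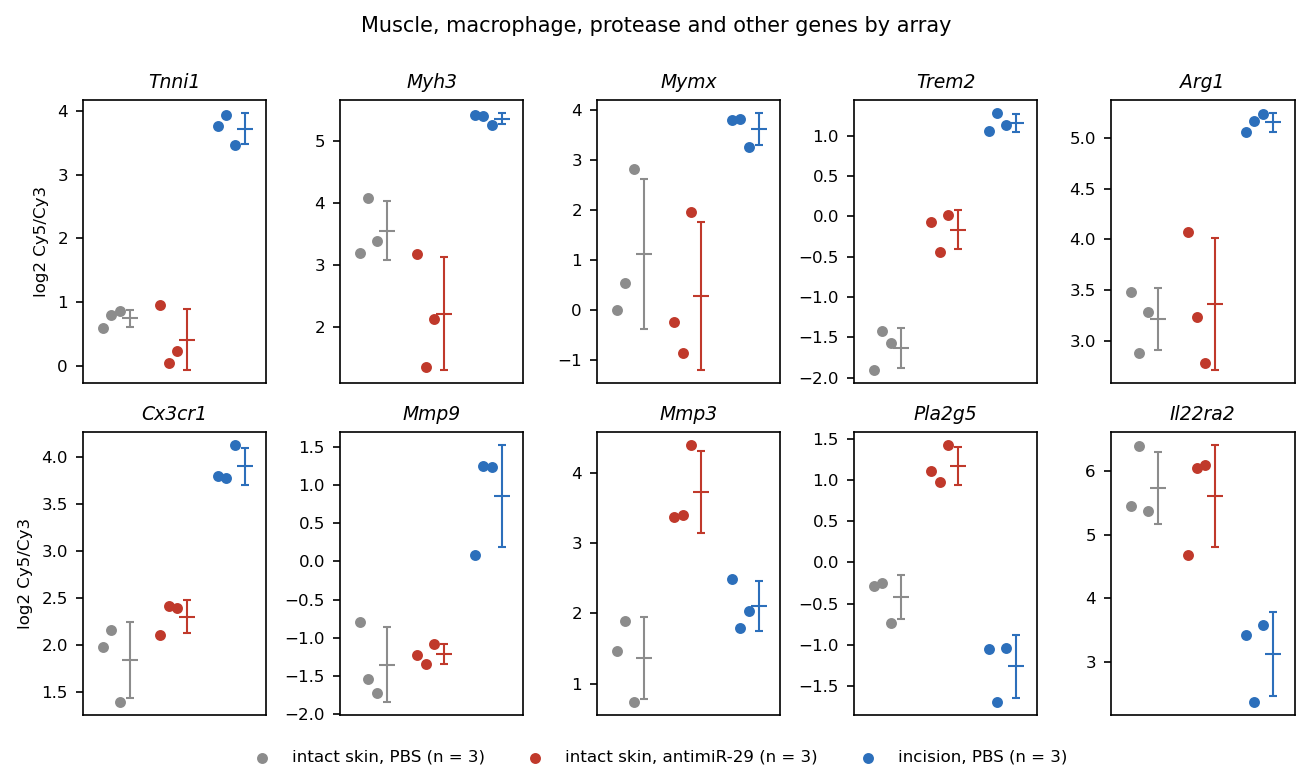
Log2 Cy5/Cy3 (y axis, own scale in each panel) of 10 muscle, macrophage, protease and other genes on each array of intact PBS skin (grey), antimiR intact skin (red) and PBS incision (blue), with the mean and SD beside the points (n = 3 each). Tnni1, Myh3, Mymx, Trem2, Arg1, Cx3cr1 and Mmp9 are higher in blue than in red on all arrays, and Mmp3, Pla2g5 and Il22ra2 are higher in red.

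Matrix proteases split by member. Of 22 measured proteases and inhibitors, 10 were called lower in antimiR skin and 4 higher (Mmp3, Mmp2, Timp3 and Ctsk). The shares of all genes were 11.0% and 9.90%, and the list median was -0.51. The count lower was 5 without PBS incision array 2 or 3, 4 without antimiR array 3, and 5 in the Cy5 channel alone. The count higher was 2 without PBS incision array 2. With the fixed slide block 1 was called lower and the median was 0.26. Mmp9, gelatinase B of neutrophils and wound-edge keratinocytes, was -1.22, -1.34 and -1.08 on the antimiR arrays, 0.09, 1.25 and 1.24 on the PBS incision arrays and -0.80, -1.54 and -1.73 on the intact PBS arrays. AntimiR skin lay within the baseline range, with a difference of -2.07 to the incision (SE 0.33, limma adjusted p = 0.0019). Mmp3, stromelysin, went the other way, with 3.38, 3.39 and 4.39 against 2.49, 1.79 and 2.04 and 1.46, 1.89 and 0.74 on the intact PBS arrays. The antimiR arrays were above all others, with a difference to the incision of 1.62 (SE 0.35, limma adjusted p = 0.0097). Mmp2, gelatinase A of fibroblasts, was 1.91, 1.68 and 2.10 against 1.32, 0.46 and 0.90 and rose by 1.00 (SE 0.21, limma adjusted p = 0.0077).

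Mmp13, the main interstitial collagenase of mice, was 0.32, 1.12 and 0.07 on the antimiR arrays and 2.10, 3.14 and 2.76 on the PBS incision arrays, a difference of -2.16 (SE 0.59, limma adjusted p = 0.025). Its call ended without PBS incision array 2 (-1.93), PBS incision array 3 (-2.12), antimiR array 1 (-2.07) or antimiR array 3 (-1.95), and the sign turned with the fixed slide block (0.45). Timp3, an inhibitor held in the matrix, differed by 0.63, lost its call in every leave-out but that of antimiR array 3 (0.54 to 0.65) and turned to -0.08 with the fixed slide block. Mmp3 was called higher and Mmp13 lower, and each has 1 match to the AP-1 motif TGANTCA close to its start. Whether the motif has a part in either difference was not tested. The matches are shown here from RefSeq on GRCm38.p6 for Mmp3 (chr9:7445756-7445802, plus strand, 39 bases before the start) and Mmp13 (chr9:7272459-7272505, plus strand, 28 bases before the start).
Mmp3: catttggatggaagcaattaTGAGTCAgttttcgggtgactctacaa
Mmp13: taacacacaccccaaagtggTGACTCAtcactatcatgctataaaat
The motif was present in 5 of 14 listed protease genes with a promoter (35.7%) and in 7.42% of all tested genes with one.

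Matrix genes listed as targets of miR-29 were called at shares near those of all genes. Of 25 measured, 3 were called higher (Adamts2, Mmp2 and Eln) and 3 lower (Col5a3, Hspg2 and Pxdn), against 9.90% and 11.0% of all genes, with a median of -0.22 that turned to 0.82 with the fixed slide block. The fibrillar collagen genes Col1a1, Col1a2 and Col3a1 were not called. Col1a1 was 3.10, 2.83 and 2.87 on the antimiR arrays and 2.76, 2.13 and 2.28 on the PBS incision arrays, with 2.17, 2.71 and 0.44 on the intact PBS arrays, where array 3 was low. Its difference of 0.54 had a 95% interval of -0.59 to 1.67, and the Cy5 channel alone turned it to -0.25. Col1a2 differed by 0.48 (95% interval -0.49 to 1.44). Col3a1 was 2.83, 1.77 and 1.87 against 3.83, 3.32 and 3.20, a difference of -1.30 (95% interval -2.56 to -0.04, limma adjusted p = 0.13) that was called with only the 2 groups in the fit and turned to 1.57 with the fixed slide block. Adamts2, which trims procollagen, rose by 1.11 (SE 0.14, limma adjusted p = 0.00056) at its brightest probe, with 2.78, 2.30 and 2.43 against 1.57, 1.23 and 1.39, but its other probe gave -0.15 and the difference in the authors' deposited table was 0.42 without a call. Elastin, Eln, differed by 0.90, lost its call without any 1 of the PBS incision arrays or antimiR array 1 (0.59 to 0.98) and was not called with the processed signals (0.56). Col5a3 (-0.88), Hspg2 (-0.56) and Pxdn (-0.66) lost their calls without PBS incision array 2 (-0.67, -0.39 and -0.47) and without antimiR array 2 or 3 (-0.80 to -0.46), and also without PBS incision array 3 for Col5a3 (-0.93) and PBS incision array 1 for Hspg2 (-0.61) and Pxdn (-0.75).

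Of 29 other listed targets of miR-29, 3 were called higher (Pdgfrb, Hbp1 and Mcl1) and 6 lower, against 9.90% and 11.0% of all genes. The list median was 0.10, and 2 were called lower with each gene's most downstream probe. Pdgfrb, the PDGF receptor of fibroblasts and pericytes, was 1.96, 2.00 and 2.17 on the antimiR arrays, 1.26, 1.25 and 1.22 on the PBS incision arrays and 0.78, 0.55 and 0.97 on the intact PBS arrays. The 3 groups did not overlap and antimiR skin was highest, by a difference of 0.80 over the incision (SE 0.13, limma adjusted p = 0.0024). Dnmt3a, a DNA methyltransferase and a textbook target, differed by 0.29 (95% interval -0.02 to 0.60) and was called with only the 2 groups in the fit. Hbp1 differed by 0.48 at its brightest probe and by 0.09 over the mean of its probes, and Mcl1, a survival factor, by 0.38, without a call when PBS incision array 2 or 3 or antimiR array 1 or 2 was left out (0.31 to 0.38). Tdg, a DNA glycosylase, and Kdm5b, a histone demethylase, were lower at their brightest probes, with differences of -1.46 and -1.36. At their most downstream probes the differences were -0.04 and 0.07, neither called.

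Of 19 provisional matrix and myofibroblast genes, 6 were called lower in antimiR skin and 0 higher, against 11.0% and 9.90% of all genes. The list median was -0.46. The median was 0.16 with the fixed slide block, and 4 were called with any array but antimiR array 1 left out. Tnc, tenascin C of healing tissue, was -0.61, -0.54 and -1.11 against 0.01, 0.88 and 0.85, a difference of -1.33 (SE 0.26, limma adjusted p = 0.005), and its other probe gave -0.69. Spp1, osteopontin, was -3.05, -2.97 and -3.20 against -2.33, -2.48 and -2.37, a difference of -0.68 (SE 0.09, limma adjusted p = 0.00064). Lrrc15, a protein of myofibroblasts, had the largest fall of the list at -3.05 (SE 0.83), with 2.81, 0.18 and 0.25 against 3.94, 4.19 and 4.28. The intact PBS arrays spread as widely (3.81, 2.29 and 0.22), the call ended in every leave-out but that of antimiR array 1 (-3.15 to -2.60), and the difference was 0.01 with the fixed slide block.

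Wound keratinocyte genes had a list median of -1.01. Of 20 measured, 6 were called lower and 1 higher (Ereg), against 11.0% and 9.90% of all genes, and 18 had a negative difference. Krt17, a keratin induced at wound edges and present in hair follicles, was 4.62, 4.50 and 4.32 on the antimiR arrays and 5.07, 5.15 and 5.24 on the PBS incision arrays, against 4.80, 5.09 and 4.46 on the intact PBS arrays. The difference was -0.68 (SE 0.15, limma adjusted p = 0.0095), and it was not called in the Cy5 channel alone (-0.79) and was 0.02 with the fixed slide block. Krt16, another keratin of activated epidermis, was 5.22, 4.71 and 4.38 against 5.80, 6.06 and 6.13 and differed by -1.23. Its Cy3 reference moved by -0.78. The mean Cy5 signal of Krt16 was 63189, 21307 and 14221 after antimiR and 39375, 178790 and 169761 after incision, which overlap. Krt16 was still called with the fixed slide block (-1.23), but not in the Cy5 channel alone (-1.86), nor without PBS incision array 2 (-1.20), PBS incision array 3 (-1.17), antimiR array 2 (-1.20) or antimiR array 3 (-1.03). Krt6a differed by -0.85, lost its call in every leave-out but that of antimiR array 1 (-0.96 to -0.47), and its Cy3 reference moved by -1.78. Ereg, an EGF receptor ligand, differed by 1.31 and lost its call in the same leave-outs (0.91 to 1.45). For the list, 3 were called lower without PBS incision array 1, 2 without PBS incision array 3 or antimiR array 2, 1 without PBS incision array 2 or antimiR array 3 and 3 in the Cy5 channel alone, and the median was 0.02 with the fixed slide block.

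The median difference over 20 cell cycle genes was -0.77, and 19 of them were negative. Of these, 4 were called, all lower (Rrm2, Aurka, Mcm5 and Cdk1), against 11.0% of all genes called lower. With only the 2 groups in the fit 17 were called lower, in the Cy5 channel alone 1, without PBS incision array 1 there were 2, and without PBS incision array 2 or 3 or antimiR array 2 or 3 there was 1. Rrm2, the ribonucleotide reductase subunit made in S phase, was -2.59, -3.14 and -3.16 against -1.96, -1.63 and -1.81, a difference of -1.16 (SE 0.25, limma adjusted p = 0.0094), and was not called in the Cy5 channel alone (-1.06). Aurka (-0.86), Mcm5 (-0.58) and Cdk1 (-0.98) lost their calls without PBS incision array 2 or 3 or antimiR array 2 or 3, at -0.97 to -0.52, and Mcm5 (-0.64) and Cdk1 (-1.13) also without PBS incision array 1. Cdk1 gave 0.19 at its most downstream probe. The list median turned to 0.52 with the fixed slide block.

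Immediate early genes, which cells switch on within minutes of a stimulus, were higher in antimiR skin where they were called. Of 16 immediate early genes, 5 were called higher in antimiR skin (Atf3, Dusp1, Klf4, Myc and Ier3) and 0 lower, with a median of 0.66. The shares of all genes called higher and lower were 9.90% and 11.0%. The list median against intact PBS skin was -0.04 in antimiR skin and -0.46 in the incision. Dusp1, a phosphatase that ends MAP kinase signals, was 1.04, 0.38 and 0.33 on the antimiR arrays, -0.34, -0.52 and -0.59 on the PBS incision arrays and 1.47, 0.71 and 0.92 on the intact PBS arrays. The incised arrays were lowest without overlap, and the difference was 1.06 (SE 0.21, limma adjusted p = 0.0062). Klf4, a factor of barrier differentiation, and Myc were higher in antimiR skin than in the incision by 1.00 (SE 0.19) and 0.68 (SE 0.13). The mean Cy5 signal of Klf4 was 18328, 15328 and 9737 on the intact PBS arrays and 10217, 13631 and 13745 after antimiR, which overlap. Atf3, a stress-induced repressor, was 2.06, 0.85 and 1.51 against 0.05, -0.43 and -0.08, with 1.03, 0.48 and 0.34 on the intact PBS arrays, and rose by 1.63 (SE 0.28, limma adjusted p = 0.003). Ier3 differed by 0.66 and lost its call in every leave-out but that of antimiR array 3 (0.53 to 0.71). With the fixed slide block the list median was 1.19.

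All 8 measured Schwann cell markers had a positive difference, with a median of 0.69. Of these, 4 were called higher, Prx and Sox10 among them, against 9.90% of all genes. The count was 2 without PBS incision array 1, 1 without PBS incision array 2 or antimiR array 2 and 0 with the fixed slide block. Against intact PBS skin none was called in antimiR skin and 4 were called lower in the incision against 5.53% of all genes (1 without intact PBS array 3). Prx, periaxin of the myelin sheath, was 1.66, 2.37 and 1.74 against -0.24, -0.71 and 0.86 and differed by 1.95 (SE 0.48, limma adjusted p = 0.017). Its call ended without PBS incision array 1 (1.85), PBS incision array 2 (1.61) or antimiR array 2 (1.73), and the sign turned with the fixed slide block (-0.12). Sox10, the transcription factor of the glial lineage and of melanocytes, differed by 0.65, and without a call by 0.51 to 0.62 when PBS incision array 2 or antimiR array 2 or 3 was left out. The list median was -0.05 with the fixed slide block. Mlana, a melanosome protein, was 3.85, 3.33 and 3.58 against 2.20, 1.27 and 2.52 and differed by 1.59 (SE 0.27), while its Cy3 reference moved by 1.24.

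The largest rises over the incision outside these groups were of several kinds. Il22ra2, the soluble receptor that neutralises interleukin-22, was 4.68, 6.04 and 6.09 on the antimiR arrays, 3.42, 2.37 and 3.58 on the PBS incision arrays and 5.45, 6.39 and 5.37 on the intact PBS arrays. AntimiR skin overlapped the baseline and the incision lay below both, a difference of 2.48 (SE 0.44, limma adjusted p = 0.0036). Rspo1, an R-spondin that strengthens Wnt signals, and Scn2a, a neuronal sodium channel, were also higher than in the incision, by 2.21 (SE 0.35) and 1.92 (SE 0.30). The mean Cy5 signal of Rspo1 was 1229, 632 and 609 on the intact PBS arrays, 1166, 1373 and 950 after antimiR and 410, 196 and 261 after incision. That of Scn2a was 984, 722 and 1349 on the intact PBS arrays, 1260, 644 and 1195 after antimiR and 311, 345 and 238 after incision. For both genes antimiR skin overlapped the baseline in that signal. The Scn2a probes disagreed, at 0.11 to 1.34 for the others.

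Further genes were high in antimiR skin against the incision, and Pla2g5 was high against both groups. Pla2g5, a secreted phospholipase A2, was 1.11, 0.97 and 1.42 on the antimiR arrays, -1.05, -1.70 and -1.03 on the PBS incision arrays and -0.29, -0.25 and -0.73 on the intact PBS arrays. The 3 groups were fully apart, with a difference of 2.43 between antimiR and incision (SE 0.20, limma adjusted p = 3.7e-05), 1.59 between antimiR and intact PBS skin and -0.84 between incision and intact PBS skin, and the first was still called with the fixed slide block (2.77). Its array probe lies at chr4:138355185-138355244 on mm9, the build named in the file headers. Slc6a7, a proline transporter, was 1.74, 1.98 and 2.47 against 0.39, 0.03 and 0.48 and rose by 1.76 (SE 0.18). Mkx, the tendon regulator Mohawk, was 0.61, 0.11 and 0.75 against -0.91, -1.59 and -1.18 and rose by 1.72 (SE 0.21), or 2.90 with the processed signals. Its Cy3 reference moved by -0.40. The mean Cy5 signal of Mkx was 200, 275 and 265 after antimiR and 229, 152 and 146 on the intact PBS arrays, which overlap. That of Slc6a7 was 243, 338 and 434 against 119, 88.2 and 116 there, which do not overlap. Pramel29 was not well above background on the PBS incision arrays, and the measured difference of its ratios was 2.31 (SE 0.10, limma adjusted p = 8.4e-07). Its Cy3 reference signal rose too, from 50.5, 45 and 61.0 to 179, 304 and 339, and the Cy5 channel alone gave 4.17.

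Single genes among the deepest falls belonged to no list. Uox, the urate oxidase that breaks down uric acid, was 0.81, 0.18 and 0.09 on the antimiR arrays, 2.09, 3.96 and 3.39 on the PBS incision arrays and 0.15, 0.30 and -0.11 on the intact PBS arrays. AntimiR skin was near the baseline and the incision far above it, with a difference of -2.79 (SE 0.50, limma adjusted p = 0.0035). Its other probe gave -1.20. Degs2, a sphingolipid hydroxylase of barrier epithelia, differed by -2.94 (SE 0.92), with 3.88, 0.21 and 1.03 against 4.32, 4.58 and 5.05. The intact PBS arrays of Degs2 spread from 0.00 to 3.39, the call ended in every leave-out but that of antimiR array 1 (-3.11 to -2.20), and the difference was 0.25 with the fixed slide block.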

How the data were processed

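Total skin RNA was measured on 12 two-colour Agilent arrays in 4 groups of 3. The deposited scanner files hold spot intensity from Agilent Feature Extraction 11.5.1.1, per the file headers, and a deposited log2 table holds the authors' normalized ratios, used as an alternative. Here intensities were corrected with normexp (offset 50) and loess-normalized within arrays in limma 3.58.1 (R 4.3.3), leaving out control spots and outlier flags. Probes well above background on at least 3 arrays were kept, and each gene was represented by its brightest probe. Differences were fitted over all 12 arrays with lmFit and eBayes, with Benjamini-Hochberg adjustment over all genes. The pipeline was tested on simulated data. P-values measure the spread between these arrays, and 3 arrays a group limit precision.

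Named genes were the 12 largest non-overlapping rises and 12 falls (predicted and unnamed genes left out, and some not named), up to 4 members of smallest p per list, and a list of core genes. The comparison, members and lists were chosen with earlier results of these data known. Rsad2, Igtp, Socs1, Ifnar1, Nfkbiz, Mrc1, Gas6, Ctsk, Timp3, Ereg, Hspg2, Pxdn, Hbp1, Ier3, Chrna1 and Pax7 fall outside that rule and were chosen after their values were seen. Alternatives covered background correction, normalization, probe choice, filters, slide, replicate number and each array left out. Leaving out intact PBS array 3 was added after seeing the data. Some items are not reported here.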

Additional observations from a re-analysis of the deposited data

How the results depend on the processing

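Of 583 calls of 2-fold or more, 496 or more kept their call under other background corrections, normalizations, filters and probe choices on the scanner intensities, and 391 in the deposited table. With 1 array left out, total calls ranged from 2578 to 3905 and calls higher from 1061 to 1768. The Cy5 channel alone called 1906 higher and 1335 lower (58.8% higher, against 47.3% with ratios). Slide as a fixed block left 140 calls (53 higher, 87 lower), and as a random block 2755 (1218 higher). Replicate numbers did not pair the arrays (correlations of deviations -0.07, 0.14 and -0.01), and a replicate block called 3824 genes.

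With the fixed slide block the list medians were 1.14 (interferon effectors), 0.021 (wound keratinocyte genes), -1.53 (slow muscle), 0.52 (cell cycle) and 1.19 (immediate early genes). The slow muscle median was -1.45 with processed signals, -1.51 in the deposited table and -1.25 with probes above background on all 12 arrays. Of 99 named and called genes, 89 kept their direction with the fixed slide block and 8 their call. The signs that turned with that block were those of Irf7 (0.66), Tlr3 (-0.078), Il1b (0.25), Ccl2 (1.18), Mmp13 (0.45), Col3a1 (1.57), Lrrc15 (0.012), Krt17 (0.021), Degs2 (0.25), Prx (-0.12), Tnfsf13b (-0.15), Timp3 (-0.075), Aurka (0.12), Mcm5 (0.021) and Cdk1 (0.30). The most downstream probe turned Irf1 (-0.027), Kdm5b (0.072) and Cdk1 (0.19). The Cy5 channel turned Ccl2 (0.038), Ccl3 (-1.62) and Col1a1 (-0.25). Processed signals and the deposited table each turned Irf7 (0.10) and Cxcl2 (-0.23), and the table Il1b (0.030). The random block turned Irf7 (0.0073) and Ccl2 (0.020). Leaving out 1 array turned the sign of uncalled genes, with ranges over the 6 leave-outs of -0.24 to 0.25 (Irf7), -0.71 to 0.58 (Il1b), -0.30 to 0.24 (Il6), -0.51 to 0.40 (Ccl2), -0.26 to 0.83 (Cxcl2), -0.11 to 0.78 (Saa3), -0.029 to 0.41 (Ifit3) and -0.037 to 0.34 (Ifih1). The cause of these changes was not tested.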
